A study of Mus musculus with 4 samples.

Results

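B-1 cells are a self-renewing lineage of innate-like B cells. They are known for life in the peritoneal and pleural cavities, for natural IgM and for receptors against self lipids such as phosphatidylcholine. Their identity is held by a small set of transcription factors and is read on the surface from CD5, which separates B-1a from B-1b cells, and from CD11b, the product of Itgam on cavity B-1 cells. Here 10 genes of this kind were followed through liver aspirates: Zbtb32, Bhlhe41, Sox5, Agbl1, Ahnak2, Tnfrsf8, Itgam, Cd5, Lmo7 and Zcwpw1. The set was chosen partly from the UMI counts of these same libraries, in which the genes stood out together, so their levels are given as a description and not as a test. All 10 were found by symbol among the 33696 genes of the count tables, each at a single row, and each was read in B cells, meaning cells with at least 1 UMI of the B cell receptor gene Cd79a, and in all other cells.

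Male C57BL/6J mice, 7 weeks old at the start, ate the FPC diet (fructose, palmitate, cholesterol and trans-fat), which induces fatty liver disease with inflammation. The low-cholesterol group received 0.05% cholesterol throughout and was aspirated at week 24 (P-LC24) and at week 32 (I-LC32). The high-cholesterol group received 1.25% until week 24 (P-HC24) and 0.05% from then to week 32 (I-HC32). At each time, 12 fine needle biopsies from the same 3 mice of a group, 4 per mouse, were pooled into 1 single-cell library. All mice ate the FPC diet, and no library from mice on chow was analysed here. Because each condition had 1 library, no comparison of conditions could be tested, and diet, mice, time and the handling of a library cannot be told apart. Intervals in parentheses are 95% intervals, exact unless named otherwise, and cover counting error only.

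After filtering, 25359 cells remained, of which 18001 were B cells. The low-cholesterol libraries held 3267 (week 24) and 4913 (week 32) of these, and the high-cholesterol libraries 4701 and 5120. The libraries held from 38509673 to 77017579 UMIs in kept cells. B cells of P-LC24 were the shallowest, with a median of 5885 UMIs, and those of I-HC32 the deepest, with 8714, while P-HC24 had 6822 and I-LC32 had 6839. Pairs of libraries shared from 12 to 29 barcodes among kept cells. Ms4a1, which encodes the B cell surface protein CD20, had a UMI in 88.7% to 92.1% of the B cells and in 2.81% to 5.89% of the other cells. Cells with a single Cd79a UMI were a mixed group, since from 37.2% to 50.0% of them carried a UMI of the T cell genes Cd3d, Cd3e or Cd3g and from 22.6% to 43.5% carried Csf1r, a macrophage and monocyte receptor.

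The 3 transcription factors of the set were found in the fewest B cells of P-LC24 and in the most of I-HC32, with P-HC24 below I-LC32. Unless libraries are named, values below follow the order low and then high cholesterol at week 24, then low and high at week 32. Sox5, a SoxD family factor, was detected in 26.0% (24.6 to 27.6), 44.0% (42.6 to 45.4), 48.8% (47.4 to 50.2) and 61.7% (60.4 to 63.0) of the B cells. No neighbours in this order had overlapping intervals. Among other cells, Sox5 was found in 4.09%, 3.06%, 3.87% and 5.17%. Zbtb32, a zinc finger repressor active in memory and B-1 cells, had a UMI in 12%, 25.7%, 27.1% and 37.3% of the B cells. The intervals of P-HC24 and I-LC32 overlapped. In other cells Zbtb32 was found in 0.90% to 3.20%. Bhlhe41, a basic helix-loop-helix repressor needed for B-1a cells, was detected in 12.8%, 20.8%, 23.8% and 27.9% of the B cells, and in 0.18% to 0.89% of the other cells.

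Bhlhe41 and Tnfrsf8 were the 2 genes of the set whose promoter window held the hexamer CACGTG, the palindromic E-box core that factors of the Bhlhe41 family bind. The windows were the 250 bases before the RefSeq gene start, and all 10 genes were matched to 13 of them. CACGTG occurred in 6.02% of all 32851 windows. The stretches are shown so that the hexamer can be seen in its setting, in capitals, with 12 bases on each side, on the strand of the gene and located in GRCm39 by exact match. In Bhlhe41 (chr6:145811282-145811311, minus strand) it starts 153 bases before the RefSeq start and lies inside the longer GENCODE gene, and in Tnfrsf8 (chr4:145041836-145041865, minus strand) it starts 119 bases before the start. These matches are letters in a window, and binding was not measured.
Bhlhe41: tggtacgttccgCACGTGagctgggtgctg
Tnfrsf8: gagtcatctctgCACGTGgtggccccttct
AACAAT, a core of Sox factor sites, was found on either strand in 9.42% of the windows and CCCNNGGG, an Ebf factor core, in 11.8%, and neither was found in a window of the 10 genes.

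The genes for cytoplasmic and chromatin proteins were also lowest in P-LC24 and highest in I-HC32. Agbl1, which encodes a carboxypeptidase that trims glutamates from tubulin and other proteins, had a UMI in 14.3%, 23.7%, 21.4% and 33.8% of the B cells. Ahnak2, a very large scaffold protein, was detected in 7.44%, 15.9%, 21.5% and 27.9%. Lmo7, a LIM and PDZ domain protein linked to cell junctions and actin, was detected in 10.3%, 19.5%, 18.1% and 26.3%. Zcwpw1, a reader of histone methylation known from meiosis, was detected in 11.2%, 18.4%, 20.5% and 25.7%. For each of these 4 genes P-LC24 was lowest and I-HC32 highest, with intervals apart from those of every other library, while the intervals of P-HC24 and I-LC32 overlapped for Agbl1, Lmo7 and Zcwpw1. Agbl1, Ahnak2 and Lmo7 had a UMI in at most 1.89% of other cells in any library. Zcwpw1 had one in 4.37% to 5.35% of them.

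Of the 3 surface receptors, only Tnfrsf8 had a UMI in a larger share of B cells than of other cells. Tnfrsf8 encodes CD30, a TNF receptor family member on activated lymphocytes, and was detected in 10.7%, 20.5%, 26.3% and 35.4% of the B cells, against 1.26% to 3.28% of other cells. Itgam was detected in 6.98%, 14.7%, 14.4% and 22.8% of the B cells, but in a larger share of the other cells of every library, at 23.8%, 37.2%, 17.8% and 39.1%. The gene was frequent in myeloid cells, since among cells with a Csf1r UMI and no Cd3 UMI, from 77.0% to 97.0% had a UMI of Itgam. Cd5 was the rarest of the set in B cells, at 2.05%, 3.45%, 6.66% and 5.37%, and the only gene that was not highest in I-HC32, although its intervals in I-LC32 and I-HC32 overlapped. Between 18.9% and 30.9% of other cells had a Cd5 UMI, and among cells with at least 2 Cd3 UMIs the share was 34.4% to 48.6%. Itgam and Cd5 alone therefore did not separate B cells from the rest, whereas the other 8 genes each had a UMI in a larger share of B cells than of other cells in all 4 libraries.

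**Figure D1:**
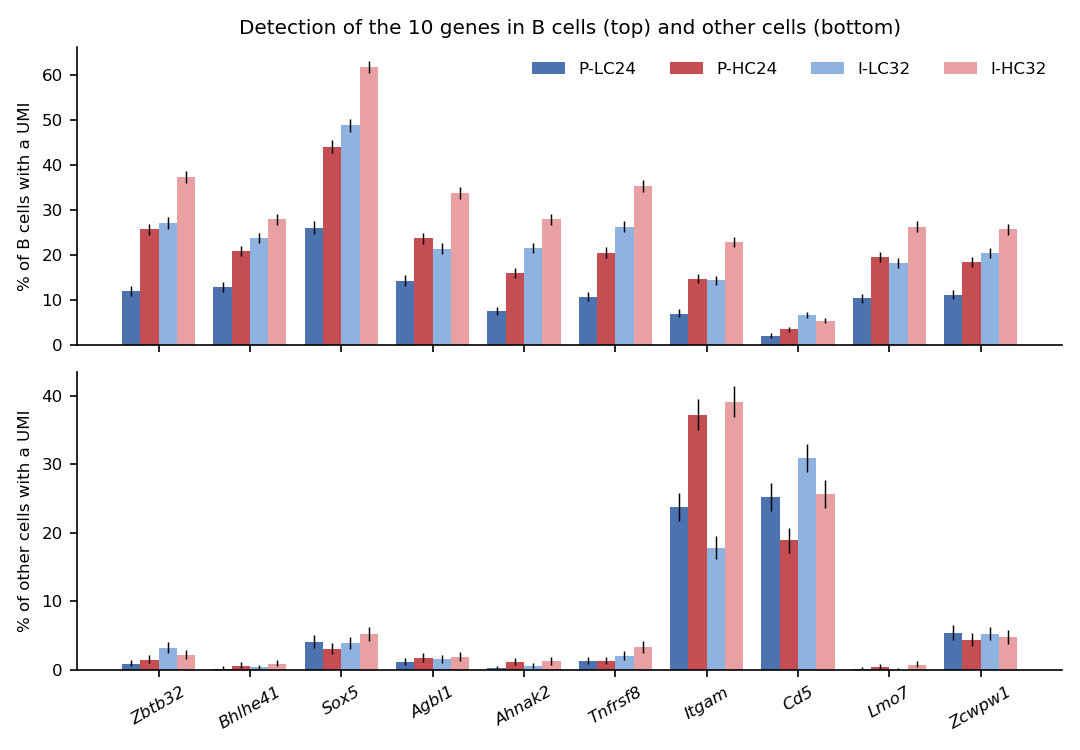
Share of cells with at least 1 UMI of each of the 10 genes, in percent, for B cells (top) and all other cells (bottom, with its own scale), with bars for the 4 libraries and exact 95% intervals. In B cells P-LC24 is lowest for all 10 genes and I-HC32 highest for 9, and in other cells only Itgam and Cd5 stand above 6%.

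Not only the share of positive cells but also the number of molecules per positive cell varied from gene to gene. Sox5 and Agbl1 were rich in UMIs, with medians of 8 to 16 for Sox5 and 8 to 14 for Agbl1 in B cells that had any, and single B cells reached 408 Sox5 UMIs and 210 Agbl1 UMIs, both in I-HC32. The other genes had medians of 1 to 4. Both rich genes are also the longest of the set, spanning 954 kb (Sox5, chromosome 6) and 895 kb (Agbl1, chromosome 7) of GRCm39, against 7.46 kb to 205.0 kb for the other 8, and levels of different genes were not compared for this reason. Sox5 is overlapped by 5 antisense genes and 1 gene on its own strand, Lmo7 by 1 and Zcwpw1 by 2 genes on the opposite strand, and the other 7 by none in the table.

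Read against sequencing depth, the summed UMIs of B cells gave a narrower picture than the shares. In P-HC24 over P-LC24, 8 of the 10 genes had at least 1.2 times the CPM, which scales the UMIs of a gene to the summed UMIs of all genes, and none was as much lower, where among all 11884 genes with at least 100 UMIs 18.1% were that much higher and 45.1% that much lower. All 10 members passed that filter. The median log2 ratio of the 10 was 0.38, against -0.21 over all genes. Itgam was furthest apart, with 31.5 CPM in P-LC24 and 73.9 in P-HC24, a log2 ratio of 1.23 (1.12 to 1.35). In B cells with no UMI of the T cell genes or of the myeloid genes Csf1r, C1qa, C1qb and S100a8 the ratio of Itgam was 0.51, and in those of them with 2 or more of the other 9 genes it was -0.24 (-0.46 to -0.0079), at 31.8 CPM in P-LC24 and 26.9 in P-HC24. Zbtb32 went from 33.5 to 59.9 CPM, a log2 ratio of 0.84 (0.72 to 0.95), and Zcwpw1 from 83.7 to 145.3 CPM, a log2 ratio of 0.80 (0.72 to 0.87). Bhlhe41, at 40.0 and 42.9 CPM, and Agbl1, at 331.3 and 364.4 CPM, stayed within 1.2-fold.

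In I-HC32 over I-LC32, after the high-cholesterol group had been 8 weeks on low cholesterol, 7 of the 10 genes were at least 1.2-fold higher and 1, Cd5, was lower, where 18.3% of 12717 genes were higher and 14.0% lower. The median log2 ratio of the 10 was 0.37, against 0.02 over all genes. Itgam stood at 74.0 CPM in I-HC32 against 40.6 in I-LC32, a log2 ratio of 0.86 (0.78 to 0.94). This ratio was 0.32 in B cells without a T cell or myeloid UMI, 0.30 in B cells with at least 3 Cd79a UMIs and 0.07 (-0.07 to 0.20) in cells without such a UMI that had 2 or more of the other 9 genes. Lmo7 was at 61.1 CPM in I-LC32 and at 110.6 in I-HC32, also 0.86 (0.79 to 0.92). Agbl1 went from 421.9 to 620.8 CPM, a log2 ratio of 0.56 (0.53 to 0.58). Sox5 was nearly level at 1275 and 1201 CPM, a log2 ratio of -0.09 (-0.10 to -0.07), and Cd5 was at 9.75 and 7.95 CPM, a log2 ratio of -0.29 (-0.49 to -0.10). Without B cells that held more lambda than kappa light chain UMIs, Sox5 was 0.32 and Cd5 0.07 on the log2 scale, and 9 of the 10 genes were higher and none lower, where 18.1% of 12427 genes were higher and 14.9% lower.

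Single B cells carried the genes in blocks. In P-LC24 61.8% of the B cells had none of the 10, and the other libraries followed with 43.9%, 42.1% and 27.4%. From 4 to 7 genes the counts formed a plateau, with 2.45% to 8.07% of the B cells at each number, the lowest in P-LC24 and the highest in I-HC32. All 10 genes were found together in 1, 7, 15 and 28 cells. B cells with 3 or more of the genes made up 16.6% (15.3 to 17.9), 32.9% (31.6 to 34.3), 36.3% (35.0 to 37.7) and 48.1% (46.7 to 49.5), and no intervals overlapped. Among other cells the shares were 0.36%, 0.71%, 0.68% and 1.33%. The difference was 16.4 points (14.5 to 18.2, combined from the exact intervals of both shares in the manner of Newcombe) at week 24, in the comparison called Progression, and 11.8 points (9.86 to 13.7) at week 32, called Intervention.

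**Figure D2:**
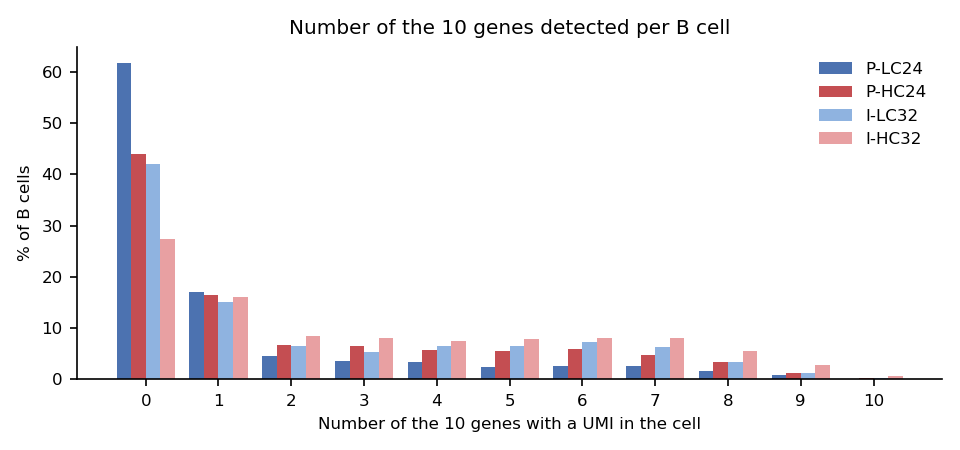
Number of the 10 genes with a UMI in a single B cell (horizontal) against the percent of B cells of each library (vertical). The bars are highest at 0 genes in every library, fall to 2 genes and then form a plateau up to 7 genes, lowest in P-LC24 and highest in I-HC32.

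Depth followed the same order of libraries as these shares. When every B cell was thinned to 3000 UMIs, leaving out the 108 to 163 shallower ones of each library, cells with 3 or more genes made up 10.7%, 20.2%, 23.8% and 32.5%, in the same order. The mitochondrial share of UMIs moved with the genes as well: 55.6%, 86.4%, 76.6% and 38.3% of the cells with 3 or more genes had over 5% mitochondrial UMIs, against 11.2%, 48.3%, 43.5% and 19.9% of the cells with none. With a limit of 5% in place of 10%, the shares of cells with 3 or more genes were 9.64%, 14.3%, 21.5% and 43.3%, the Progression difference was 4.65 points, and of the 10 gene ratios of P-HC24 over P-LC24 only 3 were at least 1.2-fold higher and 4 were lower, where 21.4% of 10830 genes were higher and 42.7% lower. Within bins of mitochondrial share, 3 or more genes were found in 3.81% of P-LC24 and 8.46% of P-HC24 B cells under 3%. From 3% to 5% the shares were 10.3% and 12.1%, from 5% to 7% 44.9% and 41.9%, and from 7% to 10% 46.4% and 63.2%. The bin of 5% to 7% held 18.3% of P-LC24 and 50.5% of P-HC24 B cells. In Intervention, I-LC32 was above I-HC32 under 3%, at 16.8% and 11.98% with overlapping intervals, and from 7% to 10%, at 58.6% and 42.5%. I-HC32 was above I-LC32 from 3% to 5%, at 46.7% against 19.7%, and from 5% to 7%, at 66.5% against 47.6%. The part of mitochondrial content in the Progression and Intervention differences was not tested beyond these values.

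Each gene was also compared between B cells that had 2 or more of the other 9 genes and B cells that had none of them, which is again a description, since the genes were chosen for standing out together. Sox5 was present in 91.0%, 94.3%, 97.1% and 95.4% of the former and in 9.58%, 12.7%, 14.4% and 21.5% of the latter. It was thus close to universal among cells with other genes of the set, and also the gene most often found on its own. Zbtb32 was present in 54.5% to 63.7% with the others and in 0.39% to 2.57% without them, Tnfrsf8 in 46.9% to 60.0% and 0.67% to 2.70%, and Bhlhe41 in 47.5% to 54.9% and 1.2% to 2.09%. Ahnak2 had 914 UMIs with the others in P-LC24 and none in the 2020 cells without them. With that 0 taken as 3 counts, the share there was at most 0.149% and the CPM of Ahnak2 at least 382-fold higher with the others. The exact 95% interval of the share reached 0.182%, and that of the log2 ratio began at 8.28. In the other libraries its CPM was 208-fold, 225-fold and 113-fold higher. Lmo7 was present in 40.2% to 46.6% and 0.98% to 1.27%, Agbl1 in 44.1% to 57.6% and 2.50% to 4.81%. For Zcwpw1 the shares were 37.0% to 42.9% and 3.90% to 4.62%, the latter close to its 4.37% to 5.35% among other cells. Cells thinned to 3000 UMIs kept the contrast for these genes, with Sox5 in 86.4% to 94.7% against 8.76% to 26.4% and Zbtb32 in 17.9% to 27.0% against 0.37% to 2.05%. Itgam and Cd5 differed less when thinned. Itgam was present in 7.23% to 10.2% against 1.47% to 8.54%, and Cd5 in 1.12% to 3.77% against 0.69% to 2.13%. In I-HC32 Cd5 was less frequent with the others, at 1.49% against 1.93%.

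Itgam and Cd5 behaved differently until cells with signs of another cell type were set aside. The CPM of Itgam in B cells with 2 or more other genes over those with none had log2 ratios of 0.19, -1.51, 0.56 and -2.09, and that of Cd5 0.11, -0.61, 0.08 and -0.88. B cells with Itgam and no other gene of the set carried Csf1r in 51.1%, 69.0%, 60.3% and 71.8%, against 1.78%, 6.53%, 2.25% and 3.14% of those with Itgam and 2 or more others. B cells with Cd5 alone carried a Cd3 UMI in 62.1%, 83.7%, 74.6% and 87.8%, against 22.6%, 21.5%, 9.56% and 27.9%. In B cells with no UMI of Cd3d, Cd3e, Cd3g, Csf1r, C1qa, C1qb or S100a8, a limit chosen after seeing these values, Itgam was present in 24.7%, 24.5%, 29.9% and 31.0% with the others and in 0.90%, 2.11%, 0.92% and 3.12% without them. Its log2 CPM ratios were then 3.98, 2.51, 3.98 and 2.61. Cd5 was present in 3.71%, 4.85%, 12% and 5.78% against 0.48%, 0.28%, 0.76% and 0.26%, with log2 ratios of 1.77, 2.88, 2.64 and 2.71. In such cells both surface markers were higher with the other genes in all 4 libraries, which in B cells as a whole was so for 2 of the 4 by CPM, P-LC24 and I-LC32. There the log2 intervals of Cd5 (-0.58 to 0.80 and -0.23 to 0.41) included 0. That of Itgam included 0 in P-LC24 (-0.04 to 0.41) but not in I-LC32 (0.38 to 0.73).

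**Figure D3:**
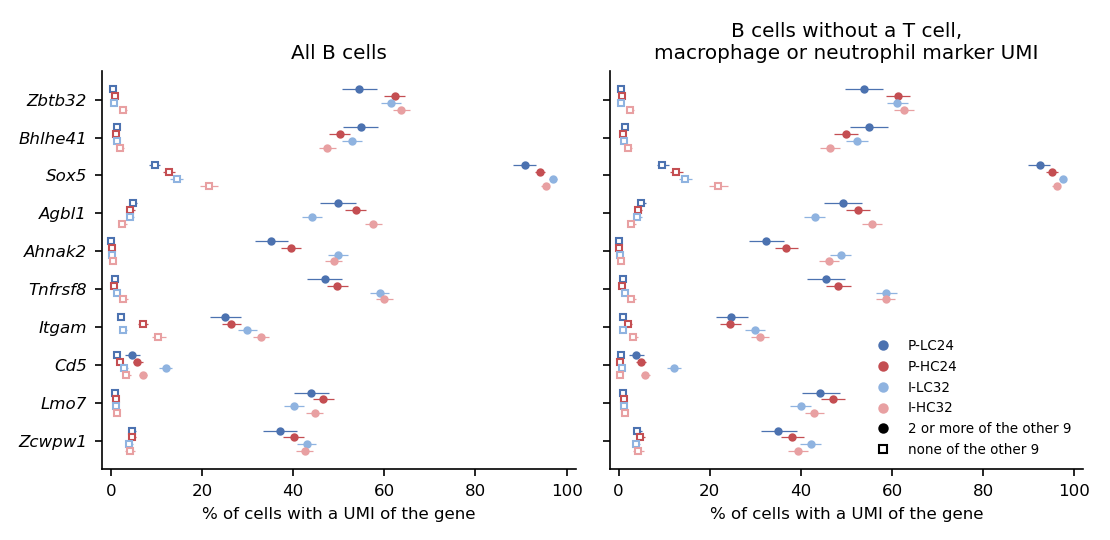
Percent of B cells with a UMI of each gene, among B cells with 2 or more of the other 9 genes (filled circles) and with none of them (open squares), per library with exact 95% intervals, for all B cells (left) and for those without a UMI of T cell, macrophage or neutrophil markers (right). Sox5 lies above 90% with the others in every library, and the open squares of Itgam and Cd5 move toward 0 in the right panel.

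Over the 90 ordered pairs of the 10 genes in thinned cells, the share of cells with one gene was higher in the presence of its partner in all 4 libraries for 72. Pairs of other genes were not read in this way, and the genes were chosen for standing out together, so this count is a description. Every one of the 18 exceptions involved Cd5 or Itgam. By the smallest of the 4 contrasts, the highest pairs were with Sox5. Ahnak2 was between 12 and 86.2 times as frequent, and Tnfrsf8 between 7.25 and 20.2 times as frequent, in cells with a Sox5 UMI as in cells without one. Among cells with 3 or more of the 8 genes other than Cd5 and Itgam, Itgam alone was found in 27.7%, 26.3%, 28.2% and 31.6%, Cd5 alone in 3.04%, 5.05%, 8.48% and 4.30%, and both in 2.28%, 1.75%, 5.31% and 3.71%. Between 58.0% and 67.0% had neither, so most cells with the set were found with no transcript of either classical surface marker at this depth.

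Within the cells that had 2 or more other genes, each log2 ratio of high to low cholesterol was lower than in all B cells. In Intervention those of Sox5, Cd5 and Bhlhe41, already below 0 in all B cells, moved further below it. In Progression (P-HC24 over P-LC24) 1 of the 10 genes, Itgam, was at least 1.2-fold higher and 5 were lower, with a median log2 ratio of -0.27. Of 10312 genes in B cells with 2 or more of the 10 genes, 14.6% were higher and 41.9% lower, with a median of -0.18. Without T cell or myeloid UMIs Itgam was not higher in these cells, and 1 gene, Cd5, was higher (0.43, -0.28 to 1.18) and 6 were lower. No share over all genes is given for this narrower group, so the count describes the members only. Sox5 was present in 94.3% of these cells in P-HC24 and in 91.0% in P-LC24, yet its CPM was 1229 and 1605, a log2 ratio of -0.38 (-0.41 to -0.35). Bhlhe41 had a log2 ratio of -0.58 (-0.70 to -0.46), at 69.6 and 104.0 CPM. In Intervention (I-HC32 over I-LC32) 3 genes were higher, which were Lmo7 at 0.66 (0.59 to 0.73), Zcwpw1 at 0.42 (0.37 to 0.47) and Agbl1 at 0.37 (0.34 to 0.39), 2 were lower, which were Cd5 at -0.56 (-0.80 to -0.33) and Sox5 at -0.33 (-0.35 to -0.31), and the median was 0.10. Of 11825 genes 18.7% were higher and 12.5% lower here, with a median of 0.05. Without cells with more lambda than kappa UMIs, Agbl1 was level at 823.5 CPM under low and 822.6 under high cholesterol, a log2 ratio of -0.0016 (-0.03 to 0.03), Sox5 was at -0.14 (-0.16 to -0.12) and Cd5 at 0.0014 (-0.31 to 0.32). In these cells 3 genes were higher, Lmo7 at 0.71 (0.63 to 0.79), Zcwpw1 at 0.64 (0.58 to 0.71) and Ahnak2 at 0.45 (0.37 to 0.54), and none was lower. Here too no share over all genes is given beside the count. In P-HC24 more B cells had the genes than in P-LC24, and 6 of the 10 had a lower CPM within such cells. The median over all genes there was also below 0, at -0.18, so this count is not particular to the set.

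**Figure D4:**
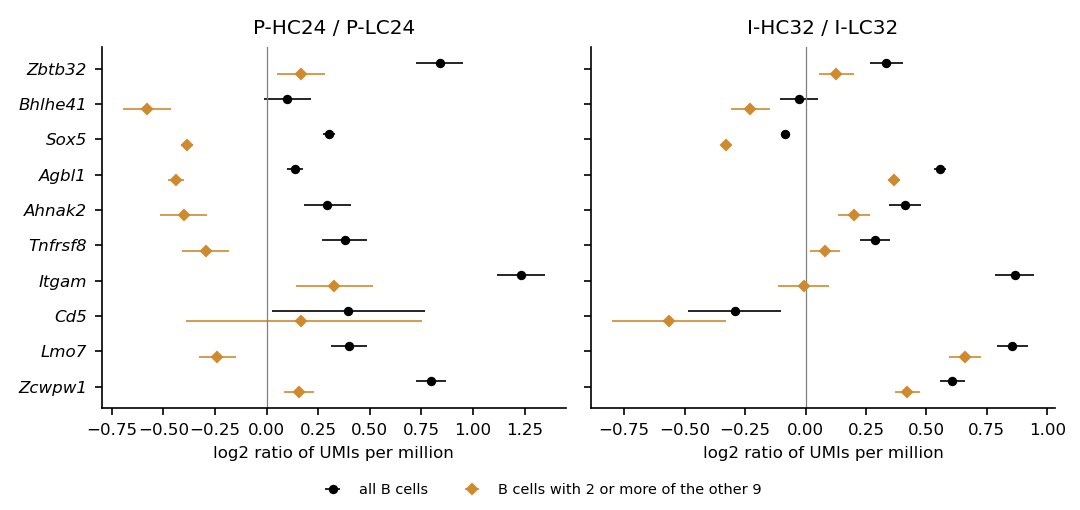
Log2 ratio of CPM for each gene in P-HC24 over P-LC24 (left) and I-HC32 over I-LC32 (right), in all B cells (circles) and in B cells with 2 or more of the other 9 genes (diamonds), with exact 95% Poisson intervals. In the left panel 6 of the diamonds lie below 0 while all circles lie above it.

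The cells with 3 or more genes differed from B cells with none in readouts that the split had not used, here given as log2 CPM ratios over the 4 libraries. The gene lists here and below were chosen with earlier results of these data known, so their counts are a description and not a test. Genes entered with at least 100 UMIs over both kinds of cells in every library. As background, 6.04% of these 9115 genes, the 10 left out, were at least 1.5-fold higher in all 4 libraries and 9.13% were lower. Of 12 other B-1 cell genes, 10 were higher, Bhlhe40, the paralogue of Bhlhe41, was lower (-1.66 to -0.67) and Siglecg was neither (0.39 to 0.74). Plscr1, a phospholipid scramblase, was 4.40 to 5.05 higher and reached 211.4 CPM in P-LC24 against 6.38 in cells with none. Ctla4, an inhibitory receptor, was 3.97 to 4.87 higher, the tetraspanin gene Cd9 2.21 to 3.59, the interleukin-5 receptor gene Il5ra 1.57 to 2.71 and Spn, which encodes CD43, 1.36 to 2.53.

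Of 8 follicular B cell genes, 6 were lower and none higher. Fcer2a, which encodes CD23, was lower by -5.31 to -3.67, Cr2, the complement receptor, by -4.37 to -3.06, and Ccr7, a homing receptor for lymph nodes, by -2.70 to -2.21, while Cxcr5 (-0.04 to 0.08) and Klf2 (0.31 to 0.54) were neither. Ighm, the heavy chain gene of IgM, was at 3065 to 3547 CPM, against 1572 to 2049 CPM in cells with none, and the ratio of Ighm to Ighd UMIs was 31.0 to 36.0 against 2.89 to 3.82. From 0.185% to 0.452% of the cells with 3 or more genes carried more of a switched isotype than of Ighm, and 0.145% to 0.297% of those with none. Of 6 tested memory B cell genes 5 were higher, among them Cd80 (3.91 to 5.31) and Nt5e (2.04 to 3.14), and Cd27 was lower (-1.73 to -1.14). Of 7 marginal zone genes 2 were higher, both also B-1 genes (Cd9 and Mzb1), and 2 lower. Of 7 pan B cell genes none was higher and 1, Ebf1, was lower (-1.01 to -0.88). Among 4 tested plasma cell genes 2 were higher, Mzb1, also a B-1 gene, and Prdm1, the gene of Blimp-1 (3.22 to 5.13). Xbp1 (-0.50 to 0.20) and Irf4 (-0.42 to 0.12) were neither. Sdc1, with too few UMIs to enter, was lower in all 4 libraries (-4.17 to -2.61). Jchain, also left out, was at -5.13 in I-LC32 and at 5.35 in P-HC24.

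**Figure D5:**
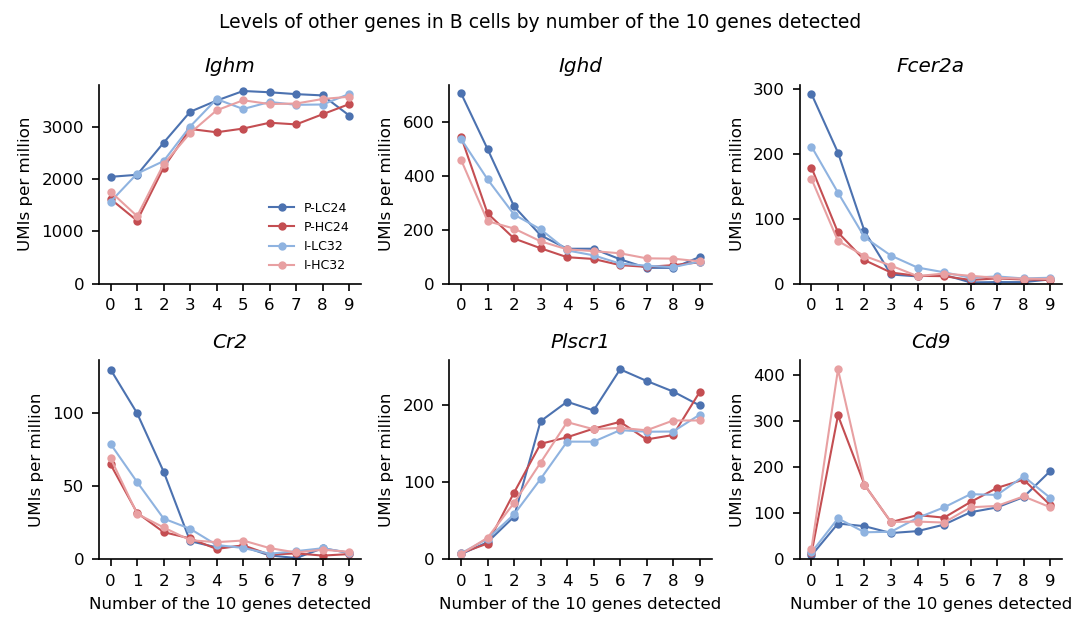
Level of 6 genes outside the set in B cells, in CPM (vertical), by the number of the 10 genes detected in the cell (horizontal; the last point holds 9 or 10), with a line for each library. Ighd, Fcer2a and Cr2 are lower at 3 or more genes than at 0 in all 4 libraries, Ighm and Plscr1 are higher, and Cd9 has a peak at 1 gene in P-HC24 and I-HC32.

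Markers of other cell types moved with the split too. All 5 tested macrophage genes were higher in cells with 3 or more genes: C1qa (1.42 to 3.87), C1qb (1.23 to 3.99), C1qc (1.67 to 4.57), Lyz2 (1.06 to 3.18) and Adgre1 (2.35 to 3.20), while the defining receptor gene Csf1r was found in 0.92% to 2.52% of these cells and in 0.82% to 1.21% of cells with none. In B cells without T cell, macrophage or neutrophil markers, split by the 8 genes other than Cd5 and Itgam, Lyz2 was lower (-1.26 to -0.73) and Adgre1 higher (0.79 to 2.53), and the other B-1 list kept 10 higher and 1 lower and the follicular list 6 lower. Of 4 tested T cell genes 3 were lower, of 2 NK cell genes 2, and of 2 dendritic cell genes 1, and none was higher. Neither of 2 neutrophil genes, the mast cell gene tested, nor either of 2 erythroid genes was past 1.5-fold in all 4 libraries. A Cd3 UMI was found in 7.95% to 12.4% of cells with 3 or more genes and in 3.37% to 5.42% of those with none, at median depths of 12650 to 13032 and 4757 to 5181 UMIs, and the part of depth and of other cells' RNA in these values was not tested.

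V gene transcripts of the receptor were not used in the split. Ighv11-2 and Igkv14-126, V genes of the classical phosphatidylcholine receptor of B-1 cells, made up 21.0% to 40.4% of heavy and 7.64% to 21.3% of light chain V gene UMIs in cells with 3 or more genes, against at most 0.45% and 0.65% in cells with none. These are shares of UMIs and not of cells. Per library, the 541 to 2464 cells with 3 or more genes held 376 to 739 heavy and 1183 to 2907 light chain V gene UMIs. Every B cell with at least 3 V gene UMIs led by Igkv14-126 had 3 or more of the 10 genes: 34 of 34, 28 of 28, 12 of 12 and 26 of 26, with medians of 7, 7, 7 and 8 genes. Of cells led by another light chain V gene, 3 or more were found in 29.8% (24.0 to 36.2), 48.3% (39.9 to 56.7), 85.5% (79.6 to 90.2) and 64.8% (55.9 to 73.1), and in I-LC32 this interval overlapped that of the 12 cells, which began at 73.5%. All cells led by Igkv14-126 had Sox5, and Cd5 was found in 14.7%, 17.9%, 8.33% and 15.4% of these cells. Their median depth of 15693 to 19482 UMIs was above that of cells led by another V gene (7228 to 13553).

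In I-LC32 39.3% (37.0 to 41.6) of the cells with 3 or more genes had more lambda than kappa UMIs, against 9.30% to 12.8% elsewhere, and the leading heavy V gene was Ighv8-5 with 31.5% of heavy V UMIs. These 701 lambda cells differed from the 1080 kappa cells of the same library in the set itself. Agbl1 was present in 30.7% (27.3 to 34.2) of the lambda and 62.7% (59.7 to 65.6) of the kappa cells, Ahnak2 in 73.2% (69.7 to 76.4) and 48.8% (45.8 to 51.8), Cd5 in 20.8% (17.9 to 24.0) and 9.63% (7.94 to 11.5), and Zcwpw1 in 59.3% and 43.5%. Mcc, an adaptor gene outside the set, had a UMI in 80.0% of them and in 19.7% of the kappa cells. In the other 3 libraries lambda cells had Agbl1 slightly more often than kappa cells, at 68.1% to 71.9% against 58.2% to 65.5%, and Ahnak2 less often, at 33.3% to 48.8% against 46.5% to 58.1%.

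Genes outside the set whose levels followed it most closely were ranked by the smallest of the 4 log2 ratios among 8077 candidates. The 15 highest were Gm30382, Robo1, Fzd6, Pstpip2, Wipf3, Syn3, Sh3bgrl2, Zfp811, Sox5os4, Krt8, Cd300lf, Tnfrsf19, Glp2r, Ryk and Mcc. Gm30382, a long noncoding RNA gene, was 6.84 to 8.12 higher on the log2 scale, at 106.4 to 173.0 CPM against 0.554 to 1.2. Pstpip2, an actin-associated adaptor, was 5.95 to 6.74 higher, Glp2r, a peptide hormone receptor gene, 4.72 to 6.58, and Sox5os4, which lies antisense within Sox5, 5.47 to 7.19. For Robo1, the axon guidance receptor, 31.8 to 100.9 CPM stood against 0.09 to 0.89, the latter from 1 to 10 UMIs per library. Others also had few UMIs in cells with none, such as Fzd6 (1 to 4 per library), Wipf3 (0 to 2) and Sh3bgrl2 (1 to 7). The order within the 15 is therefore uncertain. With counts below 3 taken as 3, the smallest ratio was 5.52 for Fzd6 and 5.05 for Wipf3, below the 5.59 of Zfp811. The 10 lowest were Vpreb3, Rflnb, Fcer2a, Gm47782, Tmem108, Treml2, Zfp608, Pxdc1, Neurl3 and Cr2. Vpreb3, a surrogate light chain relative, was lower by -4.74 to -3.82 at 7.13 to 9.98 CPM against 100.7 to 205.6 CPM, and Zfp608 by -3.92 to -3.29.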

How the data were processed

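Liver aspirates were profiled with the 10x 3′ v3.1 kit, with 1 pooled library per condition. What the authors deposited are UMI counts as whole numbers, made with Cell Ranger 9.0.1 on GRCm39. Their later steps (SoupX, Seurat 5.3) were not applied to these counts here. Whether intronic reads were counted is not given in the sources used here.

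Cells with under 500 UMIs, under 300 genes or over 10% mitochondrial UMIs were removed, and the top Scrublet scores (scanpy 1.11.5) were taken out at 0.8% per 1000 cells. Computation used scipy 1.17.1, pandas 2.3.3, numpy 2.4.6 and Python 3.11.15, and drawing matplotlib 3.10.9. No gene was tested between conditions, since each has 1 library and cells are not replicates. Shares carry Clopper-Pearson intervals and CPM ratios exact conditional Poisson intervals, at 95%. The code for CPM ratios and their intervals was checked on simulated counts. Zero counts are bounded by 3 counts per library.

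The members and gene lists were chosen with earlier results of these data known. Named genes are the 10, the list genes, and the 15 highest and 10 lowest by the smallest (or largest) of the 4 log2 ratios, with at least 200 UMIs in B cells of every library and without immunoglobulin, T cell receptor, haemoglobin, mitochondrial and ribosomal genes. Genes named from a list as examples were chosen after their values were seen. There were 44 planned and 5 added alternatives. Promoter windows and starts come from RefSeq (GRCm38.p6) and gene positions from GENCODE vM39 (GRCm39).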

Additional observations from a re-analysis of the deposited data

Results flagged for a closer look

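Some genes moved in opposite directions in Progression (P-HC24 over P-LC24) and Intervention (I-HC32 over I-LC32). With 1 library per condition, these differences were not tested. In all B cells Sox5 had a log2 ratio of 0.30 in Progression and -0.086 in Intervention, and Cd5 0.39 and -0.29. In B cells with 2 or more of the other 9 genes, Agbl1 had -0.44 and 0.37, Ahnak2 -0.40 and 0.20, Tnfrsf8 -0.30 and 0.0815, and Lmo7 -0.24 and 0.66. Without cells with more lambda than kappa UMIs, Sox5 was 0.32 and Cd5 0.07 in Intervention, and in B cells with 2 or more of the other 9 genes Agbl1 was then -0.45 and -0.0016, at no higher CPM in the high-cholesterol library of either comparison.

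Barcodes above the limit of 10% mitochondrial UMIs entered no comparison, and the genes were found there as well. Of those with a Cd79a UMI, 3 or more of the 10 genes were present in 26.3% of 76 in P-LC24, 22.1% of 190 in P-HC24, 24.1% of 133 in I-LC32 and 35.4% of 325 in I-HC32. Each share was above the limit that 3 counts allow, which was 3.95%, 1.58%, 2.26% and 0.92%. The median depth of these barcodes was 1695 to 2301 UMIs, against 5885 to 8714 in kept B cells.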

How the results depend on the processing

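No paired analysis was possible because each condition has 1 library and the results come from no test. For shares of B cells with 3 or more genes, high cholesterol stayed above low cholesterol in Progression and Intervention under all 11 alternatives run. Bins of mitochondrial share were not among these, and the order was not kept in every bin. P-LC24 was above P-HC24 from 5% to 7% (44.9% and 41.9%, intervals overlapping). I-LC32 was above I-HC32 under 3% (16.8% and 11.98%, intervals overlapping) and from 7% to 10% (58.6% and 42.5%). In the other bins the high-cholesterol library was above. The difference in points (Progression, then Intervention) was 4.65 and 21.9 with a 5% mitochondrial limit, 9.52 and 8.73 with thinned cells, 18.5 and 13.7 with 2 or more genes and 13.5 and 9.04 with 4 or more genes. It was 12.7 in Progression with all kept cells as the denominator and 19.9 in Intervention without lambda cells.

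Of the gene ratios, 75 of 149 in Progression and 74 of 149 in Intervention stayed within the counting interval of the value reported, 57 and 68 moved outside it, and 17 and 7 changed sign from a value past 1.2-fold. In Progression with a 5% mitochondrial limit, Sox5 was -0.31, Ahnak2 -0.49, Tnfrsf8 -0.11 and Lmo7 -0.19, and the counts were 3 higher and 4 lower. Within B cells with 2 or more other genes Sox5 was -0.38, Ahnak2 -0.40, Tnfrsf8 -0.30 and Lmo7 -0.24, with 1 higher and 5 lower, and in Intervention Itgam was -0.0084, with 3 higher and 2 lower. Of such cells, those without T cell or myeloid UMIs gave -0.42 for Sox5, -0.37 for Ahnak2, -0.29 for Tnfrsf8, -0.24 for Itgam and -0.32 for Lmo7 in Progression, with 1 higher and 6 lower, and 3 higher and 2 lower in Intervention. Those without lambda cells gave -0.39 for Sox5, -0.43 for Ahnak2, -0.34 for Tnfrsf8 and -0.17 for Lmo7 in Progression, with 1 higher and 5 lower, and in Intervention -0.0016 for Agbl1, -0.078 for Itgam and 0.0014 for Cd5, with 3 higher and 0 lower. For neither of these narrower groups is a share over all genes given, so their counts describe the members only. With a fold of 1.5, 3 genes were higher in each comparison and 0 lower, against 6.92% and 6.24% of all genes higher and 16.7% and 4.27% lower. The Intervention ratio of Cd5 was 0.0021 by mean UMIs per cell, 0.023 by the mean CPM of cells and 0.068 without lambda cells, and 0 genes were lower under these 3, without doublet removal and with a filter on 10% of cells. Apart from the setting without lambda cells, no share over all genes is given beside these counts, so they describe the members only. Mean UMIs per cell moved the median of all genes to 0.32 in Intervention. Other causes were not tested. Depth limits Cd5 most, with 89 to 454 UMIs in B cells per library.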
